A study of Homo sapiens with 12 samples.

Results

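The genes described here are 9 genes of the melanocyte lineage, chosen by name: the transcription factors MITF, SOX10, PAX3 and TFAP2A, the melanin enzymes TYR, TYRP1 and DCT, and the melanosome proteins PMEL and MLANA. Of these, 8 had values among the 29696 genes of the expression table, and MLANA is not analysed here. A375, a human melanoma cell line, was infected with a lentivirus carrying a hairpin against ALKBH5 (shALKBH5, labelled as ALKBH5 knockdown) or with the control virus shCtrl (labelled as wild type, named Scramble in the study's methods). Both groups are this 1 cell line and both carry a virus, and which of the study's hairpins was sequenced is not given in the sources used here. Each group had 3 input libraries of fragmented poly(A) RNA and 3 libraries of the same kind of RNA precipitated with an antibody against N6-methyladenosine (m6A), the mark that ALKBH5 removes from mRNA. The question examined was whether the level and the m6A peaks of the lineage genes differed between shALKBH5 and shCtrl cells.

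MITF is the central transcription factor of melanocytes. SOX10 and PAX3, which act in the neural crest cells that melanocytes come from, bind and activate the MITF promoter, and TFAP2A binds beside MITF at many pigment genes. MITF in turn activates TYR, TYRP1 and DCT, whose enzymes make melanin from tyrosine, as well as PMEL, which forms the fibrils of the melanosome, and MLANA. Melanomas vary widely along this programme, from pigmented tumors with high MITF to poorly pigmented ones in which MITF and the pigment enzymes are low.

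Levels are FPKM, which corrects the fragments of a gene for its length and for the size of the library, so genes can be compared with each other within a library. Read counts were not used here, the depth behind a value is unknown, and no interval from counts is given. The FPKM of all genes summed to 212800 to 223200 per library. The targeted gene ALKBH5 was at 3.12 to 3.92 FPKM in shALKBH5 and at 17.6 to 19.3 FPKM in shCtrl libraries. The labels do not say that libraries of a group came from separate cultures. The p-values thus set a group difference against the spread between these libraries, which may be technical.

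Among the lineage genes, SOX10 was abundant and the rest were low or near 0. SOX10 made up 97.2 to 97.8% of the summed FPKM of the 8 genes in every library, and its mean over the 6 libraries lay at the 99.4th percentile of all listed genes. TFAP2A (mean 2.09 FPKM, 71.1st percentile), MITF (1.02 FPKM, 63.6th) and PAX3 (0.858 FPKM, 61.7th) followed. PMEL (0.424 FPKM, 54.6th), TYRP1 (0.140 FPKM, 43.3rd), DCT (0.0312 FPKM, 26.9th) and TYR (0.00994 FPKM, 14.9th) were below the mean of 0.5 FPKM required for testing. The ratio of SOX10 to MITF was 115 to 284, depending on the library.

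**Figure D1:**
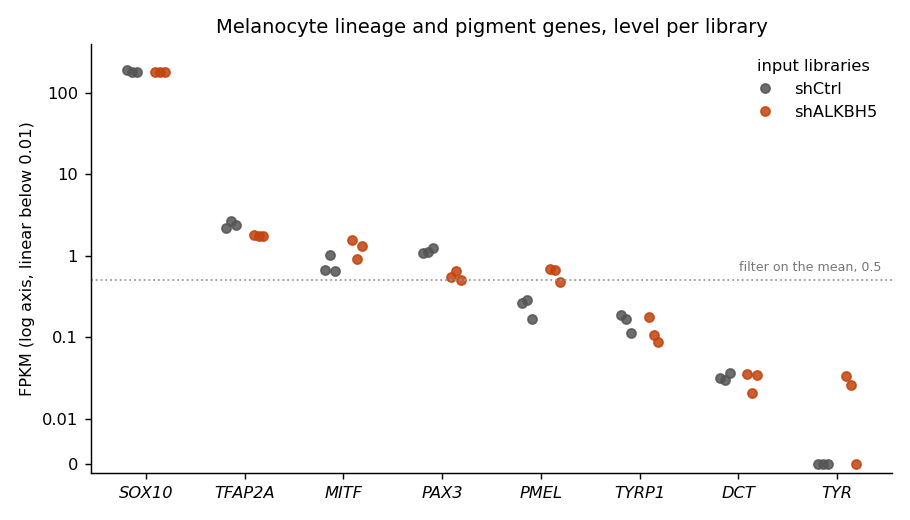
FPKM of the 8 measured lineage genes (vertical, log axis that is linear below 0.01) in each of the 3 shCtrl (grey) and 3 shALKBH5 (orange) input libraries, ordered by mean level. SOX10 lies near 180 FPKM in every library, while TYRP1, DCT and TYR lie below 0.2 FPKM in all of them.

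The order of the genes was not the same in the groups. In shCtrl libraries it ran SOX10, TFAP2A, PAX3, MITF, PMEL, TYRP1, DCT and TYR, and the ranges of PMEL and TYRP1 overlapped while those of the other neighbours did not. By the means of the shALKBH5 libraries MITF and PMEL stood above PAX3, with overlapping ranges for PMEL and PAX3 and for DCT and TYR. The ratio of MITF to PAX3 was 2.87, 1.42 and 2.57 in shALKBH5 replicates 1, 2 and 3 and 0.626, 0.899 and 0.519 in the shCtrl replicates. This ratio was chosen after the values were seen and is given without a test.

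Differences were tested by limma after conversion to log2(FPKM + 0.1), a scale that understates the change of low genes, with Benjamini-Hochberg adjustment over the 12985 genes that reached a mean of 0.5 FPKM. Of the 4 lineage genes tested, MITF passed an adjusted p-value of 0.05 with higher values in shALKBH5 cells, PAX3 and TFAP2A passed with lower values, and SOX10 did not pass. Across all genes tested 61.0% passed, 34.7% with higher and 26.2% with lower values, so 3 of 4 lies near the background.

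SOX10 (ENSG00000100146, chromosome 22, 37970686 to 37987422 in the authors' annotation, whose human build is not given in the sources used here) had 180.2, 180.0 and 181.4 FPKM in the shALKBH5 replicates 1, 2 and 3. In the shCtrl replicates it was at 191.8, 182.1 and 178.7 FPKM, and the groups overlapped. The log2 fold change was -0.03 (SE 0.0370, adjusted p = 0.532, limma), with a 95% interval from -0.12 to 0.06. POLR2F, a subunit gene of RNA polymerase II on the opposite strand, spans the whole of SOX10 and was at 17.5 ± 0.426 FPKM (SD, 3 libraries) in shALKBH5 and 15.1 ± 0.776 FPKM (SD, 3 libraries) in shCtrl cells. Whether reads were counted by strand is not stated, and the part of POLR2F reads in the SOX10 value was not tested.

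MITF (ENSG00000187098, chromosome 3, 69739464 to 69968336) was at 1.57, 0.913 and 1.31 FPKM in shALKBH5 and at 0.675, 1.01 and 0.645 FPKM in shCtrl replicates 1, 2 and 3. The shALKBH5 replicate 2 lay below shCtrl replicate 2, so the groups overlapped (p = 0.2, two-sided exact permutation test). The means were 1.26 ± 0.332 FPKM (SD, 3 libraries) and 0.777 ± 0.203 FPKM (SD, 3 libraries), and the log2 fold change was 0.63 (SE 0.232, 95% interval 0.09 to 1.18, adjusted p = 0.0475, limma). The call was lost in 8 of 13 alternatives, among them those without shALKBH5 replicate 1 (adjusted p = 0.148, limma), shALKBH5 replicate 3 (0.118), shCtrl replicate 1 (0.127) or shCtrl replicate 3 (0.133). MITF is transcribed from several promoters, and the table gives 1 value for all of them, so the melanocyte form cannot be told apart from the others.

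PAX3 (ENSG00000135903, chromosome 2, 222199887 to 222298998), a paired-box factor of the neural crest, fell in shALKBH5 cells. It was at 0.549, 0.643 and 0.508 FPKM in shALKBH5 and at 1.08, 1.12 and 1.24 FPKM in shCtrl replicates 1, 2 and 3, with no overlap. Groups did not overlap for 67.0% of the tested genes and for 39.7% of all listed genes, and for 3 of the 8 lineage genes. In such bulk RNA, fewer cells that express a gene and less of its RNA per cell cannot be told apart. The shCtrl mean was 2.03 times the shALKBH5 mean. The log2 fold change was -0.91 (SE 0.139, adjusted p = 0.000939, limma).

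TFAP2A (ENSG00000137203, chromosome 6, 10393186 to 10419659) fell less. Its values were 1.81, 1.73 and 1.73 FPKM in shALKBH5 and 2.20, 2.65 and 2.39 FPKM in shCtrl replicates 1, 2 and 3. The highest shALKBH5 value was under the lowest shCtrl value, and the shCtrl mean was 1.37 times the shALKBH5 mean. The log2 fold change was -0.43 (SE 0.0917, adjusted p = 0.00498, limma). For PAX3 and TFAP2A an exact permutation test gave p = 0.1 (two-sided), the smallest that 3 libraries against 3 allow.

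**Figure D2:**
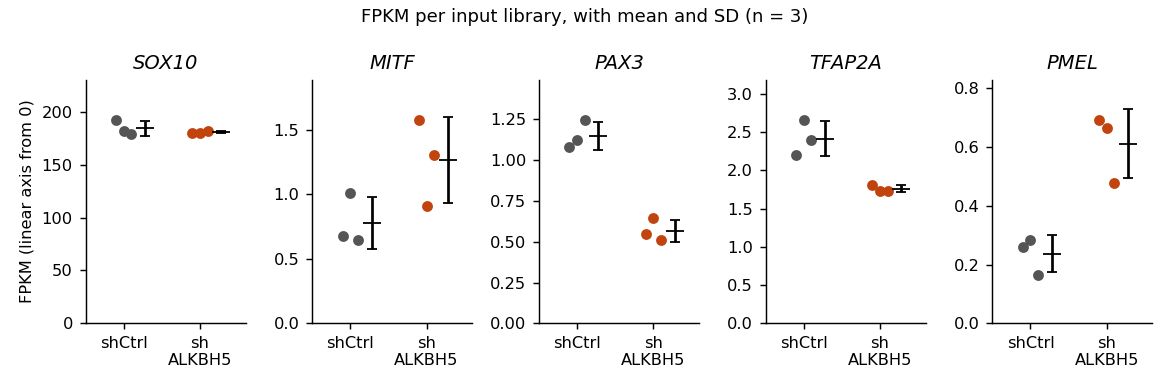
FPKM (vertical, linear from 0, own scale per gene) of SOX10, MITF, PAX3, TFAP2A and PMEL in each input library, with the mean and SD of 3 libraries beside the points. The groups are separate for PAX3, TFAP2A and PMEL and overlap for SOX10 and MITF.

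The 3 melanin enzymes were near 0 in both groups. TYRP1 (ENSG00000107165, chromosome 9, 12685439 to 12710285), which acts late in the synthesis of brown-black melanin, was at 0.177, 0.106 and 0.0867 FPKM in shALKBH5 and at 0.187, 0.168 and 0.114 FPKM in shCtrl replicates. DCT (ENSG00000080166, chromosome 13, 94436811 to 94479682), the dopachrome tautomerase, was at 0.0355, 0.0205 and 0.0342 FPKM in shALKBH5 and at 0.0317, 0.0295 and 0.0360 FPKM in shCtrl replicates. Both genes overlapped between the groups (exact permutation tests, two-sided, p = 0.4 and p = 0.8). TYR (ENSG00000077498, chromosome 11, 89177875 to 89295759), the rate-limiting enzyme, had 0.0337 and 0.0260 FPKM in shALKBH5 replicates 1 and 2 and was listed at 0 in shALKBH5 replicate 3 and in every shCtrl library. No fold change is given for TYR against a group at 0.

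The promoters of these enzymes carry the sites through which MITF is known to act, and they are shown because the 3 enzymes were low together. Each line is 30 bases from RefSeq promoters (GRCh38.p14, 250 bases before to 50 after a gene's start), 5′ to 3′ on the strand of the gene, with the motif TCATGTGCT in capitals for the enzymes and TGACGTCA, the element bound by CREB, for one MITF promoter.
TYR, chr11:89177760-89177789, motif from 105 bases before the start: gaaaagtcagTCATGTGCTtttcagaggat
TYRP1, chr9:12693230-12693259, motif from 145 bases before the start: tggaagggaaTCATGTGCTgatcaagtcct
DCT, chr13:94479798-94479827, motif from 135 bases before the start: gcactttgggTCATGTGCTaatgatgaggg
MITF, chr3:69936429-69936458, motif from 152 bases before the start: gaaaaaaagcaTGACGTCAagccaggggga
The table matched 7 of the 9 genes with 11 promoters, and SOX10 and PMEL had no entry. On both strands, TCATGTGCT stood in 3 of the 11 promoters, those of the 3 enzymes, and in 0.216% of all 35116 promoters. DCT had a further match on the opposite strand, 217 bases before the start, which is not shown. This motif was chosen after the promoters were read. The shorter CATGTG that it contains was in 3 of the 11 promoters, of the same genes, and in 11.1% of all promoters. TGACGTCA was in 1 of the 11 and in 1.85% of all promoters. A match is a description of the letters and no evidence of binding in these cells.

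PMEL (ENSG00000185664, chromosome 12, 55954105 to 55973317) was at 0.690, 0.665 and 0.478 FPKM in shALKBH5 and at 0.2605, 0.285 and 0.166 FPKM in shCtrl replicates 1, 2 and 3. The lowest shALKBH5 value exceeded the highest shCtrl value (p = 0.1 in a two-sided exact permutation test, the smallest possible). Among genes under the filter that were not at 0 throughout, groups did not overlap in 18.4%. The means were 0.611 ± 0.116 FPKM (SD, 3 libraries) and 0.237 ± 0.0629 FPKM (SD, 3 libraries), a log2 fold change of 1.08. When limma was run without the filter, an alternative added for these genes after the data were seen, the SE was 0.228 and the adjusted p-value 0.0172, where 27.7% of all listed genes passed. TYRP1 and DCT had adjusted p-values of 0.543 and 0.852 from limma in that run.

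PMEL shares bases with CDK2, a kinase of the cell cycle, which lies on the opposite strand of chromosome 12 from 55966781 to 55972789 in the authors' annotation. CDK2 was at 27.8 FPKM in shALKBH5 and 21.5 FPKM in shCtrl cells on average, with a log2 fold change of 0.37 (SE 0.0515, adjusted p = 0.000611, limma). It was thus more abundant than PMEL and moved in the same direction. The library protocol marks the second strand with dUTP, but the use of strand in counting is not stated, and the part of CDK2 reads in the PMEL value was not tested.

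The other genes of the pathway were read from 6 lists of 71 genes, of which 66 had values and 49 were tested. Of the 49, 16 rose and 14 fell in shALKBH5 cells, or 61.2%, beside 61.0% of all tested genes. Their median log2 fold change was 0.00, and that of all tested genes was 0.09.

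Of the signals and receptors of melanocytes, 5 were tested, 3 rose and none fell, and 2 did not pass the test. MC1R, the receptor for melanocortin that raises MITF through cyclic AMP, rose from 2.15 ± 0.158 FPKM (SD, 3 libraries) to 4.22 ± 0.289 FPKM (SD, 3 libraries), a log2 fold change of 0.94 (adjusted p = 6.408e-05, limma). ERBB3, a receptor for neuregulins in the neural crest lineage, rose from 54.7 ± 1.10 FPKM to 83.2 ± 1.44 FPKM (SD, 3 libraries), a log2 fold change of 0.60. KIT, the receptor for stem cell factor, was among the 2 genes with values that were below the filter.

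Of the other factors of the lineage, 9 were tested, 2 rose and 5 fell, with a median log2 fold change of -0.71. CTNNB1, which encodes beta-catenin, a coactivator at the MITF promoter, fell from 48.3 ± 2.49 FPKM (SD, 3 libraries) to 18.1 ± 0.655 FPKM (SD, 3 libraries), a log2 fold change of -1.41 (adjusted p = 1.132e-06, limma). POU3F2, also called BRN2, a POU factor of invasive melanoma cells, fell by 1.27 on the log2 scale. TFE3, a relative of MITF that binds the same sequence, rose by 0.47 on the log2 scale, and its mean of 35.9 FPKM in shALKBH5 cells was far above that of MITF. ZEB2, a repressor of differentiated melanocytes that sustains MITF, had a log2 fold change of 0.66.

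Among proteins of the melanosome membrane, 5 of 9 genes with values were tested, 1 rose and 2 fell. GPNMB, a glycoprotein related to PMEL and a known MITF target, fell from 38.2 ± 1.81 FPKM to 19.9 ± 0.774 FPKM (SD, 3 libraries), a log2 fold change of -0.94 (adjusted p = 6.351e-06, limma). TPCN2, a cation channel of the melanosome, had a log2 fold change of -0.42. TSPAN10, a tetraspanin, had a log2 fold change of 0.54, a call that was lost without shALKBH5 replicate 1 (adjusted p = 0.0834, limma), shALKBH5 replicate 2 (0.0709) or shCtrl replicate 3 (0.0651). The transporter genes OCA2 and SLC45A2 and the receptor gene GPR143, which serve pigmented melanosomes, were below the filter. The shALKBH5 replicates 1, 2 and 3 had 0.0469, 0.0939 and 0.0656 FPKM of OCA2, which was listed at 0 in every shCtrl library, so that no fold change or test is given. The values of SLC45A2 and GPR143 overlapped between the groups.

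Of the 18 tested genes for the machinery that builds the organelle, 5 rose, 4 fell and 9 did not pass the test, with a median log2 fold change of -0.05. RAB38, a GTPase that carries the melanin enzymes to the melanosome, rose from 11.5 ± 0.301 FPKM to 21.1 ± 0.294 FPKM (SD, 3 libraries), a log2 fold change of 0.86. HPS5 rose by 0.79 and DTNBP1 fell by 1.06 on the log2 scale, and both encode subunits of complexes for lysosome-related organelles. AP3D1, a subunit of a sorting adaptor, fell by 0.38. CD63, a tetraspanin that helps to sort PMEL and the most abundant gene of the list, was at 230.7 ± 4.28 FPKM in shALKBH5 and 258.2 ± 6.39 FPKM (SD, 3 libraries) in shCtrl cells, which is a log2 fold change of -0.16.

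Of 5 tested genes of melanosome transport, 2 rose and 1 fell. FSCN1, which bundles actin in the dendrites and protrusions of these cells, rose from 59.4 ± 2.55 FPKM to 105.6 ± 3.62 FPKM (SD, 3 libraries), a log2 fold change of 0.83. MYO5A, the motor that holds melanosomes at the cell edge, had a log2 fold change of -0.52, and SYTL2, an effector of RAB27A, one of 0.52. With the replicate number as a block neither passed (adjusted p = 0.0552 and 0.0562, limma), and the count of the list was then 1. Without shALKBH5 replicate 2 the count was also 1, with adjusted p-values of 0.0701 for MYO5A and 0.0794 for SYTL2 from limma. MYO5A also missed the threshold without shCtrl replicate 2 (0.0572) or without a filter (0.0696), and SYTL2 without shALKBH5 replicate 1 (0.0814), shCtrl replicate 1 (0.0510) or shCtrl replicate 3 (0.0693).

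Of 7 tested genes among other known targets of MITF, 3 rose, CDK2 among them, and 2 fell. BCL2A1, a survival factor of the melanocyte lineage, was at 1.36 ± 0.254 FPKM in shALKBH5 and 0.480 ± 0.0486 FPKM (SD, 3 libraries) in shCtrl cells, which is a log2 fold change of 1.32 (adjusted p = 0.000340, limma). ACP5, an acid phosphatase, rose by 0.42 on the log2 scale. DIAPH1, a regulator of actin, fell by 0.38. MET, the receptor for hepatocyte growth factor, had a log2 fold change of -0.47, which did not pass without shALKBH5 replicate 2 (adjusted p = 0.104, limma), shCtrl replicate 2 (0.0778), shALKBH5 replicate 3 (0.0602) or shCtrl replicate 3 (0.0530). MET also missed the threshold with the replicate number as a block (0.0705), without a filter (0.103) and without a trend (0.0562).

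**Figure D3:**
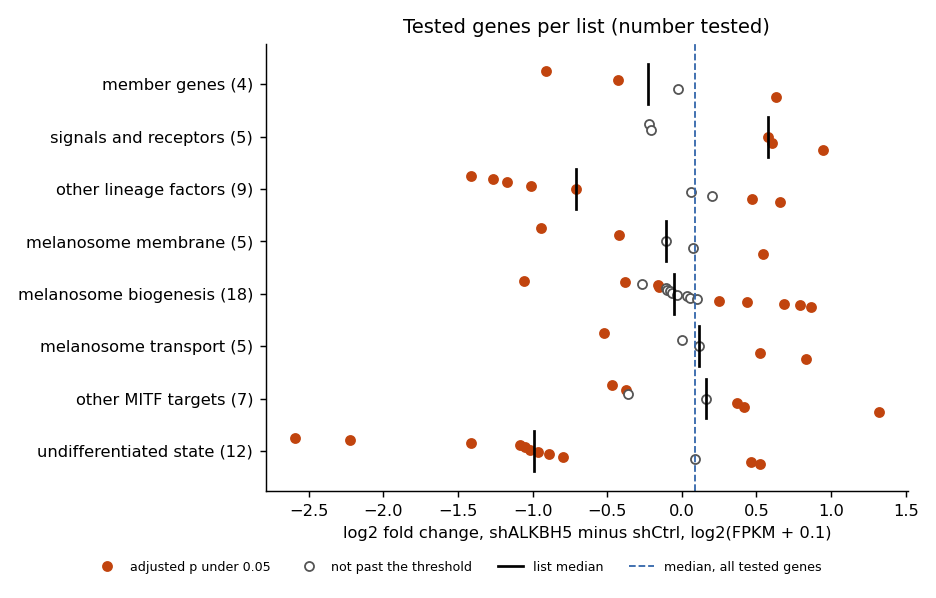
Log2 fold change (horizontal, shALKBH5 minus shCtrl) of each tested gene in the member genes, the 6 pathway lists and the undifferentiated state list, with the list median (black line) and the median of all tested genes (dashed line, 0.09). Filled points passed an adjusted p-value of 0.05, and most pathway lists hold filled points on both sides of 0.

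The m6A peaks were read from the authors' lists, 1 for each group, which hold no values of single libraries and so allow no replicate check. The lineage genes had 23 of the 46039 peaks in the shALKBH5 list, in 7 genes, and 16 of the 44304 peaks in the shCtrl list, in 6 genes. TYR had no peak in either list. By the authors' annotation 12 of the 23 and 8 of the 16 lay in 3'UTRs, or 52.2% and 50.0%, beside 45.5% and 46.2% of all peaks. At an FDR of at most 0.05 as the peak caller gave it, 21 and 14 peaks were left. These are 91.3% and 87.5%, beside 85.38% and 86.45% of all peaks in the 2 lists.

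Of the 23 shALKBH5 peaks, 19 (82.6%) shared at least 1 base on the same strand with a shCtrl peak, beside 78.1% of all shALKBH5 peaks. Of the 16 shCtrl peaks, 14 (87.5%) shared a base with a shALKBH5 peak, beside 81.3% of all shCtrl peaks. More peaks were listed in shALKBH5 than in shCtrl cells for PAX3, with 8 and 5, TYRP1, with 3 and 1, and PMEL, with 2 and none. For PAX3 and TYRP1 these numbers include regions listed in pieces, as described below. MITF, SOX10, TFAP2A and DCT had 2, 3, 4 and 1 peaks in each list. Peak spans run from the first to the last base and include introns.

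SOX10 had nearly the same peaks in both lists. The widest ran from 37973178 to 37984305 on chromosome 22 with 6.93-fold enrichment of IP over input in shALKBH5, and from 37973238 to 37984335 with 7.01 in shCtrl cells. The peak at the 3' end of the annotated gene had a fold enrichment of 2.98 and 3.02, and the one between them had 2.06 and 1.89, in shALKBH5 and shCtrl cells. The log10 FDR was -223 or lower for all 3 in both lists. All 3 overlapped between the lists by at least 50% of both spans.

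The MITF peak with the lowest FDR lay toward the 3' end of the gene. It spanned 69951831 to 69965674 on chromosome 3 in shALKBH5 cells, with a fold enrichment of 7.05 and a log10 FDR of -80.2. In shCtrl cells it spanned 69956459 to 69965674, with a fold enrichment of 6.91 and a log10 FDR of -48.3, and both ended at the same base. A peak from 69967977 to 69968127, with a fold enrichment of 1.92, was listed in shALKBH5 cells only. A peak annotated to the 5'UTR, from 69752191 to 69763661, was listed in shCtrl cells only, with a fold enrichment of 11.5 and a log10 FDR of -1.48.

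TFAP2A had a 3'UTR peak in both lists, with log10 FDRs of -143 and -215. This peak, from 10397710 to 10400716 on chromosome 6 in shALKBH5 cells, had a fold enrichment of 11.9, and its shCtrl counterpart from 10397680 to 10400716 had 14.6. The 5'UTR peaks of TFAP2A share bases with peaks of the antisense gene TFAP2A-AS1. PAX3 had 3 short peaks near its 3' end in shALKBH5 cells, between 222200846 and 222202015 on chromosome 2, with fold enrichments of 1.91, 5.65 and 2.80. The shCtrl list held 1 peak there, from 222200966 to 222202045, with a fold enrichment of 6.27, which overlaps all 3. The larger number of PAX3 peaks was thus in the group with the lower PAX3 level, and part of it was 1 region listed in pieces.

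Peaks were also listed for 3 of the 4 measured pigment genes. DCT had 1 peak in its 3'UTR in each list, with a fold enrichment of 17.1 in shALKBH5 and 12.8 in shCtrl cells and log10 FDRs of -3.27 and -2.16. TYRP1 had 3 peaks with fold enrichments of 6.53 to 9.80 in shALKBH5 and 1 of 7.92 in shCtrl cells. The shCtrl peak, from 12694153 to 12698480 on chromosome 9, overlaps all 3 shALKBH5 peaks. The larger number of TYRP1 peaks was thus 1 region listed in pieces. PMEL had an exonic peak from 55957415 to 55957564 on chromosome 12, with a fold enrichment of 2.26, and an intronic one from 55966838 to 55966986, with 1.46, both in shALKBH5 cells only. The intronic one lies within the span of CDK2.

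**Figure D4:**
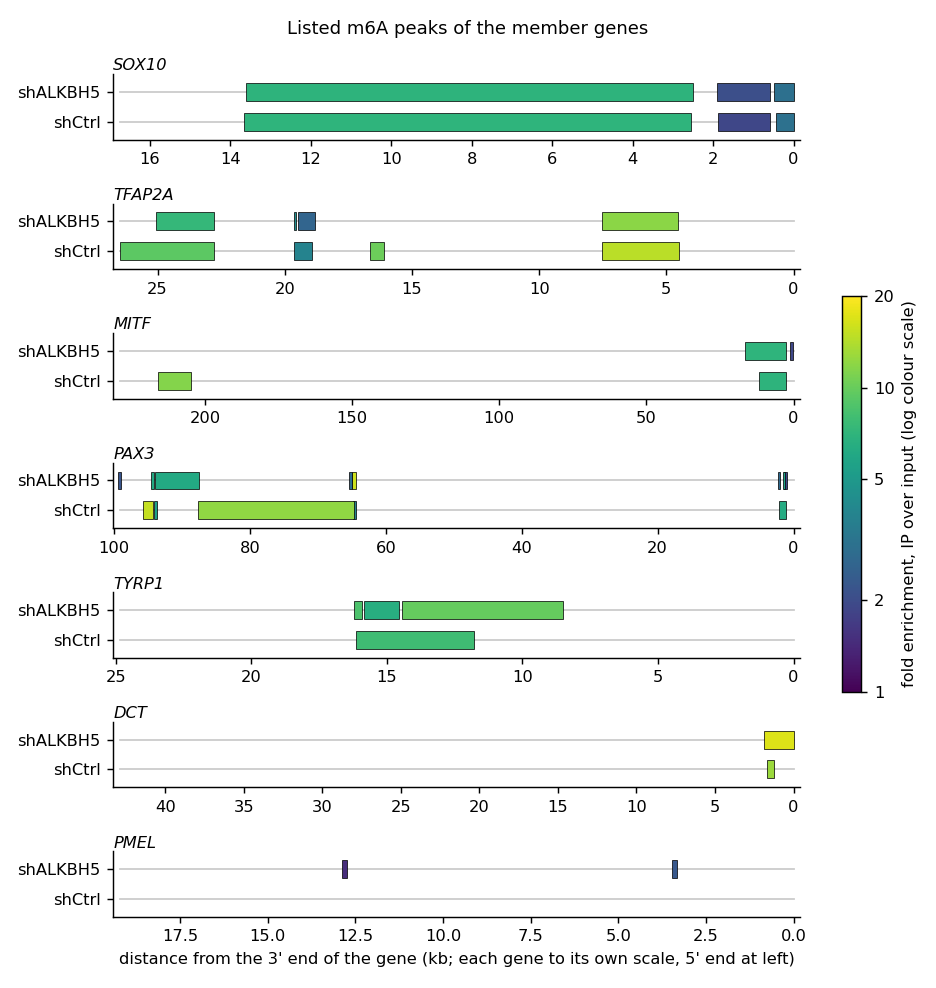
Listed m6A peaks of 7 lineage genes by distance from the 3' end of the gene (horizontal, kb, own scale per gene), in shALKBH5 and shCtrl cells, coloured by fold enrichment of IP over input. The 3 SOX10 peaks coincide between the lists, PAX3 has 8 and 5 peaks, and PMEL has peaks in shALKBH5 cells only.

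High fold enrichment went with low input level across all genes. In the shALKBH5 list the median fold enrichment was 7.35 for peaks of genes under 0.5 FPKM and 2.81 for genes over 50 FPKM, with median log10 FDRs of -2.52 and -65.7. In the shCtrl list the medians were 7.66 and 2.73. The DCT peaks, at 17.1 and 12.8, were above the median of genes under 0.5 FPKM in their lists, and the widest SOX10 peak lies above the median of its level. Other peaks were below the median of their level. Among them were the middle SOX10 peak (2.06 in shALKBH5 and 1.89 in shCtrl cells) and, in shALKBH5 cells, both PMEL peaks (2.26 and 1.46) and the TYRP1 peak at 6.53.

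**Figure D5:**
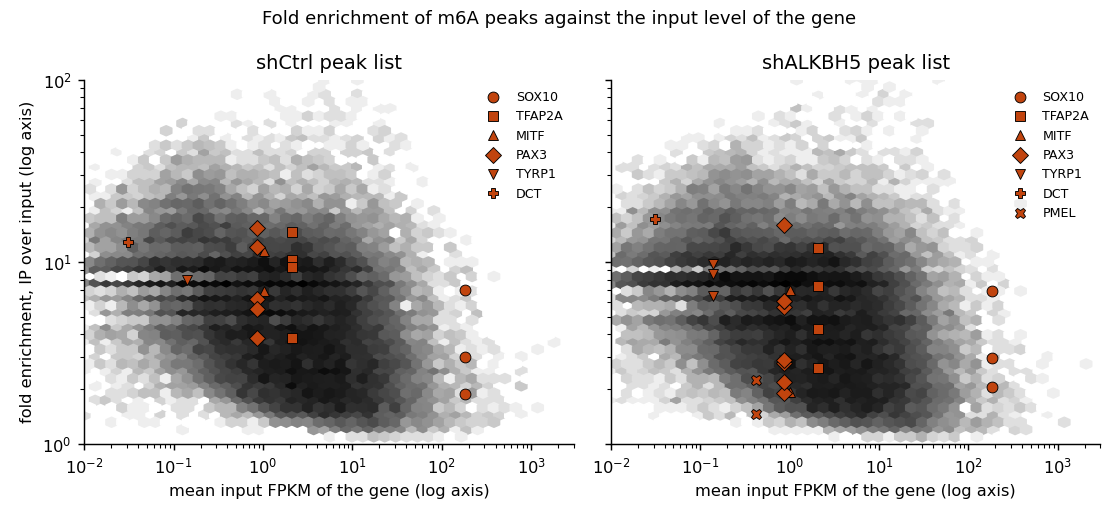
Fold enrichment of IP over input (vertical, log axis, shown up to 100) against the mean input FPKM of the gene (horizontal, log axis) for the peaks of each list, as grey density, with the peaks of the lineage genes as orange symbols. Fold enrichment falls from low to high input level, and the DCT peak, at 0.0312 FPKM, stands at 12.8 and 17.1.

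A further deposited table holds 6513 regions in 5210 genes that the authors compared between the groups, and only its positions were read. It lists regions of 2 of the 7 lineage genes with peaks, beside 27.3% of all genes with peaks. These are the PMEL region from 55966838 to 55966986 and the SOX10 region from 37970686 to 37971163, and both have the span of a shALKBH5 peak.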

How the data were processed

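Input RNA-Seq and MeRIP-Seq data of shALKBH5 and shCtrl A375 cells were grouped by sample title. Per library, the authors deposited FPKM values, made with an aligner, counter and annotation that are not given in the sources used here. The labels name the build mm10 for these human samples. Of 21697 genes matched by symbol, 66.3% share a start or end with RefSeq genes of GRCh38.p14. For each group, 1 deposited peak list gives the fold enrichment, a ratio of IP over input, and a log10 p and log10 FDR for every peak. The deposited log10 values were read as a score, since some are infinite. Peak starts count from 0 in the files and were changed to count from 1. The authors' fold changes and p-values between groups, for genes and for peaks, were not used.

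FPKM values were tested two-sided in R 4.3.3 with limma 3.58.1, whose eBayes step used an intensity trend, in place of the count model of the study, which needs read counts. The test was checked on simulated data. Tables and plots were made in Python 3.11.15 (pandas 2.3.3, numpy 2.4.6, matplotlib 3.10.9). At most 0.123% of tested genes had identical values in any pair of libraries. The 3 libraries per group limit the precision.

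The genes and lists were chosen with earlier results of these data known. The text names the 9 genes, ALKBH5, from each list the 2 called genes with the largest increase and the 2 with the largest decrease, and the most abundant gene of each list. It also names the 3 genes with the pattern most like the most abundant lineage gene. POLR2F, CDK2, KIT, OCA2, SLC45A2, GPR143, RAB27A and genes of marker lists were named after their values were seen. One gene was taken out of the melanoma marker list and is not reported here. The alternatives changed the pseudocount (1 or 0.01), the filter (none, or 1 FPKM) and the scaling (median ratio), dropped the trend or single libraries, or added the replicate number as a block. For peaks they required a fold of 2 or more with an FDR up to 0.01, or a reciprocal overlap of 50%.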

Additional observations from a re-analysis of the deposited data

How the results depend on the processing

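Of the 51 alternative values for the 4 tested lineage genes, 42 kept direction and side of the threshold, 8 lost the call and 1 changed sign. The 8 are all of MITF, whose log2 fold change was 0.63 without a filter (adjusted p = 0.126 from limma), 0.56 after rescaling (0.0566), 0.63 with the replicate number as a block (0.0892) and 0.63 without a trend (0.0590). Leaving out each library gave MITF 0.47 to 0.83, SOX10 -0.05001 to 0.0010, PAX3 -0.99 to -0.84 and TFAP2A -0.49 to -0.36. The lineage genes called were then 2 to 3, and the pathway genes called 24 to 30. The share of all tested genes called in these fits, and in the block fit below, is not given here. These counts therefore stand without a background. The sign of SOX10 changed without shCtrl replicate 1. A pseudocount of 1 made the log2 fold changes of low genes smaller, to 0.38 for PMEL, -0.46 for PAX3, 0.35 for MITF, 0.67 for BCL2A1, 0.34 for ZEB2 and 0.22 for SYTL2, with no call lost among the last 5. Same-numbered libraries did not deviate together (correlations 0.0181, -0.0462 and 0.0591), and with the block 2 lineage genes and 26 pathway genes were called. Stricter peaks left 13 of the 23 shALKBH5 and 12 of the 16 shCtrl peaks, beside 30643 of the 46039 and 30294 of the 44304 peaks of all genes. Of the 13 and 12, 11 and 10 overlapped a stricter peak of the other list, and 12 and 12 any peak of it, beside 27603 and 27809 peaks of all genes. A reciprocal overlap of 50% left 8 shALKBH5 and 8 shCtrl peaks (34.8% and 50.0%), beside 51.6% and 53.7% of all peaks. The planned search for motifs within peaks was not run because the sequence used here covers promoters and not the peaks. The cause of these changes was not tested. With 3 libraries a group, no rule for outlying libraries was applied.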

Other observations

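Genes of the undifferentiated melanoma state, which in many melanomas run opposite to MITF, were read beside the lineage genes. Of 12 tested, 2 rose and 9 fell in shALKBH5 cells, or 91.7% beside 61.0% of all tested genes, with a median log2 fold change of -0.99. NGFR, the neurotrophin receptor of neural crest-like melanoma cells, was at 5.66 ± 0.253 FPKM (SD, 3 libraries) in shALKBH5 and 34.7 ± 2.05 FPKM (SD, 3 libraries) in shCtrl cells, which is a log2 fold change of -2.59 (adjusted p = 2.396e-07, limma). LOXL2, an enzyme that crosslinks collagen, fell by 2.22 on the log2 scale. FOSL1, an AP-1 factor, rose from 193.8 ± 15.2 FPKM to 266.3 ± 8.66 FPKM (SD, 3 libraries), and TEAD1, a factor of the Hippo pathway, had a log2 fold change of 0.53. TNC, a matrix protein and with FOSL1 among the most abundant of the list, had 250.6 ± 13.4 FPKM in shALKBH5 and 235.8 ± 7.24 FPKM (SD, 3 libraries) in shCtrl cells, and its groups overlapped.

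Of the general markers of melanoma cells, MCAM, CSPG4 and S100B were abundant and S100A1 was low, at 4.43 FPKM in shALKBH5 and 1.85 FPKM in shCtrl cells on average. The 4 genes S100B, S100A1, CSPG4 and MCAM summed to 315.4 to 321.4 FPKM in shALKBH5 and to 244.6 to 252.8 FPKM in shCtrl libraries. All 4 passed the test, 3 higher and 1 lower in shALKBH5 cells. Of all tested genes 61.0% passed, 34.7% higher and 26.2% lower. S100B, a calcium-binding marker used in melanoma pathology, was at 82.1 FPKM in shALKBH5 and 32.9 FPKM in shCtrl cells on average, which is a log2 fold change of 1.32. Of markers of other cell types, 3 keratinocyte, 6 fibroblast and 2 leukocyte genes had values. They summed to 10.7 to 11.5, 3.20 to 4.35 and 38.3 to 42.1 FPKM in shALKBH5 libraries and to 8.90 to 9.53, 2.23 to 2.37 and 14.8 to 17.3 FPKM in shCtrl libraries. Of these genes, KRT10 (10.8 FPKM in shALKBH5 and 8.17 FPKM in shCtrl cells on average) and LUM (2.61 and 1.16 FPKM) were higher in shALKBH5 cells, KRT14 (0.369 and 0.961 FPKM) was lower, and COL1A1 (0.552 and 0.451 FPKM) did not pass the test (adjusted p = 0.000516, 0.000515, 0.00372 and 0.263, limma). LUM carried the fibroblast sum. PDGFRA (0.242 and 0.422 FPKM) and COL1A2 (0.0158 and 0.0499 FPKM) were lower and DCN (0.291 and 0.187 FPKM) higher in every shALKBH5 library than in any shCtrl library. All 3 were below the filter, and without it their adjusted p-values from limma were 0.0448, 0.0551 and 0.129. TP63, COL3A1 and CD14 were at most 0.168 FPKM in either group on average, and CD68, which carried the leukocyte sum, was at 40.4 and 16.2 FPKM. The part of other cells in the lineage values was not tested.

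Of 5714 other genes averaging 5 FPKM or more, PRRC2A, BAG6 and TRAP1 had the pattern most like SOX10. Pearson's r was 0.975, 0.971 and 0.968 over the 6 input libraries, which fall into 2 groups, and 21 genes had r over 0.9. SOX10 overlapped between the groups, with 191.8 FPKM in shCtrl replicate 1 and 178.7 to 182.1 FPKM in the rest. How far r rests on that library was not tested.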
